A study of Mus musculus with 10 samples.

Results

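The custom-ID probes are 60-base oligonucleotides on an Agilent expression array whose probe names begin with CUST_ and whose spots are not controls. By this rule 93857 of the 145548 probes on each array were members, and the other 51691 carry Agilent catalogue IDs. The labels and the array files do not say which kind of transcript a custom probe reads, so no class was assigned to any of them. The arrays measured total RNA of male C57BL/6 mice, taken from ventricular tissue at the border of the injury 21 days (3 weeks) after a myocardial infarction (MI), or from the same area after a sham operation. Both groups shared strain, sex and tissue, and no genetic change or drug is named for either. Each of the 10 samples, 5 MI and 5 sham, was hybridised with Cy3 dye to 1 array. Whether every sample is a mouse of its own is not stated in the labels, so the p-values measure only the spread between these samples, which may be technical. The sources used here do not give the age of the mice, the method of infarction or the number of animals.

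A myocardial infarction kills heart muscle downstream of a blocked artery. The border area lies next to the scar and holds surviving muscle cells beside activated fibroblasts, vessels and immune cells. Over the following weeks fibroblasts there lay down collagen and matricellular proteins such as periostin. The study is named for lncPostn, a long noncoding RNA, and for TGF-beta and p53 signalling in cardiac fibrosis. Long noncoding RNAs are transcripts that do not encode a protein, many of them spliced, present at low levels and restricted to few cell types. Arrays that profile them add custom probes to the usual catalogue. A probe of this kind carries the letters of the RNA it reads and binds labelled copies of the complementary strand, so a probe reads 1 strand only. In bulk tissue such as this, fewer cells of a type and less RNA per cell cannot be told apart.

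Some probes from the comparison of MI with sham are shown first, in the letters of the array files, 5′ to 3′. Not all of those shown passed the test, and not all that passed are shown. The first set is a block of 6 probes with consecutive ID numbers, all higher in MI, whose values are given further on.
CUST_OEV3_065209: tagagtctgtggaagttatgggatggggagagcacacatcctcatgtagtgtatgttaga
CUST_OEV3_065210: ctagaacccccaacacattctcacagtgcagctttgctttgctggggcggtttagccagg
CUST_OEV3_065211: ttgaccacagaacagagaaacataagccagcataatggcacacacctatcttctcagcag
CUST_OEV3_065212: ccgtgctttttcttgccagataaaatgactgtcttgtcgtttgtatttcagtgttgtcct
CUST_OEV3_065213: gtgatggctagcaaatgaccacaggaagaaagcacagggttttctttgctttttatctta
CUST_OEV3_065214: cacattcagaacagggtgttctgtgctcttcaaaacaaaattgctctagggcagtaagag
The longest stretch that any pair of these 6 sequences shared was 9 bases on either strand, so the 6 probes did not read the same 60 bases.

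The second set holds the other probes called higher in MI, at separate ID numbers.
CUST_OEV3_029597: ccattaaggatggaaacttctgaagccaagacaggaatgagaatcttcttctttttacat
CUST_OEV3_028982: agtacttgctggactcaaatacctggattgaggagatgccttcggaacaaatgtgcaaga
CUST_OEV3_067282: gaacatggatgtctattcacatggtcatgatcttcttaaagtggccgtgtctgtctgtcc

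The third set is a group of neighbouring IDs with lower means in MI that partly share their sequence. CUST_OEV3_064617 and CUST_OEV3_064618 carry one sequence, and so do CUST_OEV3_064620 and CUST_OEV3_064621. Capitals mark the 53 bases that CUST_OEV3_064619 and CUST_OEV3_064620 share.
CUST_OEV3_064617: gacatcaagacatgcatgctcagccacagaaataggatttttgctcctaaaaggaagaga
CUST_OEV3_064619: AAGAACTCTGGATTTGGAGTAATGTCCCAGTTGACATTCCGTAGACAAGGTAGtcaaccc
CUST_OEV3_064620: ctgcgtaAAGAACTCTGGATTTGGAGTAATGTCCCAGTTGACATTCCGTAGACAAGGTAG
CUST_OEV3_064622: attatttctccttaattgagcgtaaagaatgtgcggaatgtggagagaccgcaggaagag

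The last set gives 2 of the probes called lower in MI. Their sham signal was well above background on all 5 arrays, which also held for other probes called lower that are not shown.
CUST_OEV3_011140: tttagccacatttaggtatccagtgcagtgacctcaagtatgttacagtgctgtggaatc
CUST_OEV3_062635: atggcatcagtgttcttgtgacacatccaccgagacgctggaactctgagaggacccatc

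The 10 arrays lay on 3 slides, and the slides divided the groups unequally. Sham replicates 1 to 4 were on slide 1, sham replicate 5 and MI replicates 1 to 3 on slide 2, and MI replicates 4 and 5 on slide 3, the only one scanned on the later of 2 days. Only slide 2 held both groups. None of the custom probes was saturated, and 55 lacked a value on some array after uneven spots were left out. Levels are given as the log2 processed signal minus the 75th percentile of the array's noncontrol spots, so 0 is the level of a probe at that percentile. The scale is relative to each array, and it does not compare the amount of RNA between different probes.

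Custom probes were detected less often than catalogue probes on each of the 10 arrays. Detected here means flagged well above background by the scanner software. In the sham samples 43.6, 44.6, 44.7, 44.6 and 42.8% of custom probes were detected on replicates 1 to 5, a mean of 44.0% ± 0.861 (SD, n = 5). In MI the shares were 38.9, 45.8, 44.0, 28.7 and 30.9%, a mean of 37.7% ± 7.67 (SD, n = 5). MI replicate 2 was the highest of all 10 arrays, and MI replicates 4 and 5 on slide 3 were the lowest. The difference of the means, -6.38 percentage points, was smaller than the SD of the MI samples, and the groups overlapped. Within slide 2 the 3 MI arrays averaged 42.9% ± 3.57 (SD, n = 3) and the single sham array stood at 42.8%, so on that slide the groups were at the same share within the MI spread.

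Catalogue probes on the same arrays were detected at 69.8% ± 0.834 in sham and 65.8% ± 4.51 in MI (SD, n = 5 each). The custom share minus the catalogue share was between -26.1 and -25.4 percentage points on the sham arrays and between -26.8 and -24.6 on MI replicates 1 to 3. On slide 3 it was -31.8 and -31.3 points, so the gap was widest on those arrays.

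Of the 93857 custom probes, 42423 (45.2%) were detected on no array and 23871 (25.4%) on all 10. For the catalogue probes these shares were 22.6% and 56.4%. All 5 sham arrays detected 35581 custom probes, and all 5 MI arrays detected 24023. A class of 5958 probes (6.35%) was detected on all 5 sham arrays and on MI replicates 1 to 3 but on neither array of slide 3. A clean on and off pattern between the groups was rare. On all 5 sham and no MI array 131 custom probes (0.140%) were detected, and 2 (0.00213%) on all 5 MI and no sham array. For catalogue probes these shares were 0.128% and 0.00580%.

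For the comparison of MI with sham a probe had to be detected on 4 or 5 arrays of one group or the other. This left 38719 custom probes (41.3%) and 55138 that were not tested. Of the tested ones, 10610 passed only through the sham samples and 198 only through MI, so a probe that passed had in many cases been selected for its sham signal.

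The level of the custom probes covered a wide range. Over all custom probes with a value, the mean sham level ran from -5.44 to 12.67 with a median of -3.66, and 5% lay above 2.42. The corresponding sham median of the catalogue probes was -0.83. Among the tested custom probes the median was -0.69, against 0.80 for tested catalogue probes, and 37.6% were above 0. Array by array, the median over tested custom probes was between -0.71 and -0.64 in sham and between -0.93 and -0.54 in MI, with slide 3 the lowest at -0.93 and -0.81. The mean of these medians was -0.68 ± 0.03 for sham and -0.71 ± 0.16 for MI (SD, n = 5 each). The difference, -0.03, was small against the MI spread. Its sign turned to 0.08 without MI replicates 4 and 5 and to 0.03 without MI replicate 4 alone, so it gives no direction.

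The 3 custom probes of highest sham level were CUST_OEV3_091299, CUST_OEV3_066113 and CUST_OEV3_074855. CUST_OEV3_091299 stood at 12.84, 12.83, 12.66, 12.74 and 12.25 in sham and at 12.35, 12.22, 12.27, 12.23 and 11.97 in MI. The lowest sham array, replicate 5, lay below MI replicates 1 and 3, so the groups overlapped, and the log2 difference of -0.46 did not pass the test (limma, adjusted p = 0.255). CUST_OEV3_066113 was at 12.51 ± 0.24 in sham and 12.17 ± 0.21 in MI (SD, n = 5 each; limma, adjusted p = 0.385). CUST_OEV3_074855 was at 12.42 ± 0.24 in sham and 11.88 ± 0.10 in MI (SD, n = 5 each; limma, adjusted p = 0.191). In all 3 probes sham replicate 5 was the lowest sham array. On slide 2 the difference between the MI arrays and sham replicate 5 was 0.03, -0.06 and -0.14 in this order.

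The array files give no coordinate or gene for any custom probe. Exact matches of the 60 bases to RefSeq start windows, from 250 bases before to 50 bases after a gene's start in mouse build GRCm38.p6, placed 360 custom probes (0.384%), each on 1 chromosome. Of these, 192 read the strand of the gene and 176 the opposite strand, and 8 were counted on both. By the RefSeq gene spans, 90 of the 360 lay within a gene of their own strand and 190 within no gene. Probes within a gene of their own strand were detected on at least 4 sham arrays in 55.6% of cases, and those within no gene in 36.8%. The share was 43.5% for the 62 within a gene of the other strand only. For the 18 within a gene of unlisted strand only it was 33.3%. Among all custom probes this share was 41.0%. The other probes, including all 18 that pass the test below, matched no window and are named by ID only.

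Ordered by ID number, the placed probes ran down the chromosomes. Of 171 steps between matched probes on one chromosome with IDs from 2210 to 49427, 154 went to a lower or equal coordinate, and of 111 such steps from 49808 to 74610, 108 did. The chromosome order started again between IDs 2204 and 2210 and between IDs 49427 and 49808. No probe from 74611 to 90104 matched a window. These 5 ranges were defined after the matches had been seen, and the sources used here do not say what each was designed from.

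The ranges differed in how often their probes were detected. On at least 4 sham arrays 53.9% of the 24803 probes from 49808 to 74610 were detected, against 38.4% of the 47218 from 2210 to 49427. The 15494 probes of the unmatched range, 74611 to 90104, were at 27.8%. The first 2204 IDs were at 41.5%, and the 3753 IDs from 90105 on were at 43.8%. The order of the ranges at 49808 to 74610 and at 74611 to 90104 was the same on every array: the first lay between 54.6 and 58.5% in sham and the second between 29.7 and 31.1%. In MI the first lay between 40.8 and 58.5% and the second between 17.3 and 32.1%, lowest on slide 3 in both. Median base composition was 43.3% G and C in the first and 45% in the second. The ranges were not compared within classes of base composition.

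Within the custom probes as a whole, detection did rise with the G and C content of the probe. It was 21.0% on at least 4 sham arrays for probes over 30 and up to 35% G and C, 33.4% for those over 35 and up to 40%, and 43.3% for those over 40 and up to 45%. The next class, over 45 and up to 50%, was at 39.2%, and above 50% it was 59.2%. Catalogue probes rose without that step, from 52.5% to 90.0% over the same classes. In every one of these classes the custom share was below the catalogue share. Base composition also moved with the difference between groups: the median of MI minus sham among tested custom probes was 0.02 in the class from 30 to 35% and -0.15 above 50%. For catalogue probes the medians of these classes were -0.08 and -0.13. The part of base composition in the difference between groups was not tested.

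Among the placed probes, the highest level belonged to CUST_OEV3_062400 at chromosome 2, 45117575 to 45117634, on the plus strand (GRCm38.p6). It lies within 250 bases before the start of Zeb2, a zinc-finger repressor of transcription known from epithelial to mesenchymal transition, and reads the strand opposite to it.
CUST_OEV3_062400: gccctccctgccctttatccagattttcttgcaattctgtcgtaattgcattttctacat
Its level was 10.42, 10.54, 10.22, 10.34 and 10.47 in sham and 10.52, 10.38, 10.41, 9.56 and 9.64 in MI. MI replicates 1 to 3 lay among the sham arrays and the 2 arrays of slide 3 lay below them. The log2 difference of -0.30 did not pass the test (limma, adjusted p = 0.514).

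CUST_OEV3_071487 lies opposite to the start of Pfn1, the actin-binding protein profilin, on chromosome 11 at 70654758 to 70654817, and within the span of Eno3, the muscle form of the glycolytic enzyme enolase, on its own strand. It was at 5.73 ± 0.17 in sham and 5.51 ± 0.09 in MI (SD, n = 5 each; limma, adjusted p = 0.481). CUST_OEV3_036944 lies at the start of Gm52044 on chromosome 13, at 83662479 to 83662538, inside the span of Mef2c on the other strand. Mef2c encodes a transcription factor of muscle development. The probe was at 6.24 ± 0.11 in sham and 6.36 ± 0.23 in MI (SD, n = 5 each; limma, adjusted p = 0.718). The difference of 0.12 in CUST_OEV3_036944 was within the MI spread, and that of -0.22 in CUST_OEV3_071487 exceeded both SDs but did not pass the test. Other placed probes also lay above CUST_OEV3_071487 in sham. CUST_OEV3_061837, within the span of Tspan18 with its strand not listed, was at 6.19 ± 0.24 in sham (SD, n = 5). CUST_OEV3_037130, within no gene span, was at 5.83 ± 0.24 in sham (SD, n = 5).

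Of 78 same-strand and 77 opposite-strand placed probes that were tested, none was called, and 1 had groups that did not overlap. Over all tested probes 0.0487% were called, and without overlap 2.01% were higher and 1.76% lower in MI. The 1 placed probe was CUST_OEV3_058636 at chromosome 4, 97584734 to 97584793, on the plus strand. The probe lies opposite to the start of E130114P18Rik and within the span of Nfia, a transcription factor gene, on its own strand. Its sham levels were -1.74, -1.30, -1.75, -1.34 and -1.79 and its MI levels -1.97, -1.93, -2.42, -3.58 and -3.47. The drop was deepest on slide 3, only 3 of the MI arrays detected it, and the log2 difference was -1.09 (SE 0.33; limma, adjusted p = 0.204). On slide 2 alone it was -0.32.

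For the title's pathways a probe was placed near 1 gene only, outside that gene's span, and it could not be tested. Of 42 genes listed for periostin and fibrosis, TGF-beta, p53 and cardiac stress, only Mdm2 had a custom probe in its start window, and of 46 genes marking heart cell types none had. The labelled tissue could therefore not be checked against its markers with these probes. Mdm2 encodes the ubiquitin ligase that holds p53 in check and is itself a p53 target. CUST_OEV3_001917 lies before its start on the same strand, at chromosome 10, 117710945 to 117711004, outside every RefSeq gene span.
CUST_OEV3_001917: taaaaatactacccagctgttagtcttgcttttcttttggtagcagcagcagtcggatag
Its sham levels were -2.36, -2.48, -3.0, -3.16 and -3.44, and its MI levels -3.53, -2.12, -2.29, -4.09 and -2.93. The groups overlapped fully, and the probe was detected on 3 sham and 2 MI arrays, too few for the test.

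Some custom probes shared sequence with miRNA precursors. Of the custom probes, 13 shared at least 25 bases with one of 1005 RefSeq miRNA hairpins, all on the strand of the hairpin. This describes the probe sequences and does not check the strand of the signal. A short match does not place a probe over a hairpin: CUST_OEV3_059146 and CUST_OEV3_069451, far apart in ID, share 25 and 28 bases with Mir682. Of these, 10 were detected on at least 4 sham arrays and tested, and none was called. The brightest were CUST_OEV3_081581 and CUST_OEV3_083762, which share 26 and 25 bases with Mir466k, at 9.14 ± 0.13 and 8.05 ± 0.15 in sham (SD, n = 5 each). Their MI levels were 9.25 ± 0.58 and 8.29 ± 0.64 (SD, n = 5 each; limma, adjusted p = 0.853 and 0.681). CUST_OEV3_008401 shares 37 bases with Mir690 and was at 6.22 ± 0.09 in sham and 6.68 ± 0.54 in MI (SD, n = 5 each; limma, adjusted p = 0.380). Its MI replicates 4 and 5 were at 7.35 and 7.17 and the other 3 between 6.18 and 6.43, close to sham. CUST_OEV3_074041, which lies wholly within the Mir181b-1 hairpin, and CUST_OEV3_059818, which shares 46 bases with Mir137, were detected on no array. A probe of 60 bases reads transcripts longer than a mature miRNA, so these values are no measure of the mature miRNAs.

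Custom probes scattered more between MI samples than between sham samples. Over tested custom probes the median within-group SD was 0.20 in sham and 0.51 in MI on the log2 scale, and the MI value was the larger in 89.8% of them. Tested catalogue probes had medians of 0.17 and 0.50. The slides moved with this: among the 4 sham arrays of slide 1 the median SD of custom probes was 0.17, among MI replicates 1 to 3 of slide 2 it was 0.23, and between the 2 arrays of slide 3 it was 0.30. Without MI replicates 4 and 5 the MI median exceeded the sham median by 0.02, against 0.30 with them. The 0.02 sets MI arrays of slide 2 alone against all sham arrays, on slides 1 and 2. Neither the number of arrays nor the slides were matched in these comparisons of spread.

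Spread in sham fell with level throughout, while spread in MI was highest in the dimmest class and differed little among the others. Among custom probes detected on all 10 arrays, the median sham SD was 0.31 for levels from -3 to -2, 0.19 from -1 to 0 and 0.13 above 2. The MI medians in the same classes were 0.51, 0.40 and 0.43.

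The 3 custom probes of largest sham SD among those detected on all arrays were CUST_OEV3_083150, CUST_OEV3_011066 and CUST_OEV3_009201. CUST_OEV3_083150 was at 8.45, 8.34, 8.28 and 8.16 on sham replicates 1 to 4 and at 3.58 on replicate 5, and between 7.60 and 9.11 in MI. A single array thus set its SD of 2.12. CUST_OEV3_011066 was at 2.23, -2.20, 1.5, 1.02 and 0.85 in sham and at 2.10, 0.84, 1.97, -1.22 and -0.93 in MI. CUST_OEV3_009201 was at 3.22, -1.20, 2.40, 2.14 and 1.59 in sham and at 2.56, 1.51, 2.73, -0.02 and -0.02 in MI. In the last pair of probes sham replicate 2 was the lowest sham array and both arrays of slide 3 were the lowest in MI.

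Repeat spots on the same array gave the error of a single spot, which leaves out labelling, hybridisation and slide. Of the custom probes, 2162 were printed as 10 spots, and 572 of these were detected on all 10 arrays. Their median SD between spots of one array was 0.13, their median SD between sham arrays 0.12 and between MI arrays 0.38. The latter SDs are of means over the spots, whose own error is smaller than that of a single spot.

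Some sequences were printed under more than 1 ID, 1542 in all, held by 3306 IDs. For the 783 pairs of identical sequence with both IDs tested, the sham level correlated at r = 0.996 across pairs and the difference MI minus sham at r = 0.869, as a description over probes that share arrays. The median distance within a pair was 0.12 in MI minus sham, and 5% of pairs were more than 0.49 apart. A difference of that size between 2 custom probes is therefore within what 1 sequence gave against itself. Another 5390 pairs shared at least 25 bases on the same strand without being identical, and the 934 of them with both tested correlated at r = 0.674 in MI minus sham. For the 99 tested pairs on opposite strands r was 0.266, and their median distance in sham level was 1.94, against 0.55 for same-strand pairs. Of 266 opposite-strand pairs, both probes were detected in 99 and exactly 1 in 93.

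Setting MI against sham addressed which custom probes differed at 21 days. Of 38719 tested custom probes, 18 passed the test (limma, adjusted p under 0.05 over all 73918 tested probes), 6 higher and 12 lower in MI. Of the 18, 12 had passed the detection filter only through the group where they were high. Among probes detected on all 10 arrays, 3 custom probes were called higher and 2 lower. That was 0.0209% of the custom probes in that fit, against 0.0245% of all probes in it. Over all tested probes the called share was 0.0487%, with 0.0298% higher and 0.0189% lower. Among custom probes it was 0.0465%, near the background with both directions pooled. By direction the kinds of probe differed, on small counts. Of 35199 tested catalogue probes 16 were called higher and 2 lower, against 6 and 12 of the 38719 custom probes. All 18 differed by at least 2-fold by their measured means, where the share of all tested probes was also 0.0487%. The median log2 difference over tested custom probes was -0.07 and over all tested probes -0.09. The adjusted p of the 18 ran from 0.0149 to 0.0469, so the strongest call was not far inside the threshold.

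In all 18 the MI and sham values did not overlap, which fixes their direction on any subset of the arrays. On slide 2, with 3 MI arrays against the single sham replicate 5, 16 of them were at least 1 log2 unit apart. The arrays of slide 2 also entered the test that selected the 18, so this is a description and no separate check. The share of all tested probes that far apart on slide 2 is not given here. With slide as a fixed block limma called none of them, with adjusted p from 0.0600 to 0.918. In that fit 1499 tested custom probes (3.87%) had an unadjusted p under 0.05, against 4.55% of all tested probes. Leaving out 1 array at a time moved the number of custom calls from 18 to 0 (without sham replicate 2, 3 or 4, or MI replicate 3, with 9.54 to 14.9% of custom and 10.1 to 14.2% of all tested probes at an unadjusted p under 0.05), to 1 (sham replicate 1), to 11 (MI replicate 5), to 60 (MI replicate 4) and to 516 (MI replicate 1). Without sham replicate 1 the called share was 0.00258% of custom and 0.00271% of all tested probes, and without MI replicate 5 it was 0.0284% and 0.0244%. Without MI replicate 4 it was 0.155% and 0.199%, and without MI replicate 1 it was 1.33% and 1.66%. Without MI replicates 4 and 5 together, 3630 custom probes were called, 1499 higher and 2131 lower, and 804 of them were at least 2-fold apart. All 18 were among those called. Over all probes in that fit the called share was 16.3%, with 3.34% higher, 13% lower and 2.57% at least 2-fold apart. Among custom probes it was 9.38%. Of 35199 tested catalogue probes in that fit, 973 were called higher and 7455 lower, so the directions were divided otherwise than in the custom probes.

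Counting only probes whose 5 MI values all lay on one side of the 5 sham values, 746 tested custom probes were higher and 612 lower. These are 1.93% and 1.58% of those tested, against 2.01% and 1.76% over all tested probes. The custom probes were near the background in both directions.

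The block of consecutive IDs held 3 of the 6 probes called higher. CUST_OEV3_065213 was at -2.81, -4.47, -5.36, -3.93 and -4.83 in sham and at -0.58, -1.72, 0.26, -1.19 and -0.34 in MI. All MI arrays detected it and only 1 sham array did, and the groups did not overlap. The measured log2 difference of 3.56 (SE 0.47; adjusted p = 0.0356 in limma) is set against sham signal that was mostly not well above background, and with normexp background correction it was 0.69.

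CUST_OEV3_065209 was at -2.79, -2.76, -2.97, -2.24 and -1.77 in sham and at 0.69, -1.0, 1.01, 0.36 and 1.28 in MI. It was detected on all 10 arrays, and the lowest MI array, replicate 2, lay above the highest sham array. The log2 fold change was 2.97 (SE 0.40), or 7.84-fold (limma, adjusted p = 0.0356). CUST_OEV3_065212 was at -3.05, -3.05, -3.53, -3.49 and -3.70 in sham, where no array detected it, and at -0.60, -2.12, -0.16, -1.57 and -0.95 in MI, where all did. Since its sham signal was not well above background, its difference is a bound, at least 4.22-fold higher. The test was on the measured log2 difference of 2.28 (limma, adjusted p = 0.0469), not on the bound. Such bounds set the higher group's mean against the lowest signal that counted as detected on each array of the other group, or the probe's own signal there if that was brighter.

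The other 3 probes of the block were higher in MI without passing the test. CUST_OEV3_065211 was at -2.46 ± 0.34 in sham and -0.64 ± 0.66 in MI (SD, n = 5 each; limma, adjusted p = 0.0771). CUST_OEV3_065214 was at -1.64 ± 0.14 and -0.49 ± 0.56 (SD, n = 5 each; limma, adjusted p = 0.116). CUST_OEV3_065210, the brightest, was at 0.80 ± 0.07 in sham and 1.31 ± 0.21 in MI (SD, n = 5 each; limma, adjusted p = 0.199). In each of the 6 probes no MI value lay within the sham range.

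The differences in the block ranged from 0.51 to 3.56 on the log2 scale. On slide 2 alone they were 2.0, 0.47, 1.74, 2.74, 4.15 and 1.5 in ID order. MI replicate 2 was the lowest MI array in 4 of the block's 6 probes, CUST_OEV3_065209, CUST_OEV3_065211, CUST_OEV3_065212 and CUST_OEV3_065213.

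Next to the block the values did not follow. CUST_OEV3_065208 was at -1.88 ± 0.39 in sham and -1.56 ± 0.26 in MI (SD, n = 5 each; limma, adjusted p = 0.484). CUST_OEV3_065207 differed by 0.19, CUST_OEV3_065205 by -0.50, CUST_OEV3_065217 by -0.14 and CUST_OEV3_065218 by 0.07 on the log2 scale, and none passed the test. CUST_OEV3_065215 and CUST_OEV3_065216, directly after the block, were detected on too few arrays to be tested.

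The block was found by looking for runs of consecutive IDs without overlap between the groups, so its agreement in direction is a description. It was the only run longer than 2 among the custom probes. There were 40 runs of 2, of which 24 were lower and 16 higher, and in 6 of them both IDs carried one sequence. The nearest placed probes before and after the block were CUST_OEV3_065133 at the Hnrnpm start (chromosome 17, 33685638 to 33685697) and CUST_OEV3_065250 at the Fbxl16 start (chromosome 17, 25808446 to 25808505). No probe of the block matched a window itself, so its own position and gene are not known here.

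Across the whole ID order, neighbours moved together only weakly. In the range from 49808 to 74610, which holds the block, the correlation of MI minus sham between probes with adjacent IDs was r = 0.175 over 7798 pairs, overlapping sequences left out. At an ID distance of 3 it was 0.088 and at 10 it was 0.010. From 2210 to 49427 it was 0.065 over 7293 pairs, and from 74611 to 90104 it was 0.018 over 1307. Sham levels of adjacent IDs correlated at 0.051, 0.009 and 0.074 in these ranges. These values describe probes that share the 10 arrays and carry no test.

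The other probes called higher stood alone. CUST_OEV3_029597 was at -3.57, -4.35, -3.64, -4.04 and -3.28 in sham, where it was not well above background on any array. In MI it was at -1.42, -1.04, -0.93, -0.80 and 0.84, detected on all 5, with replicate 5 well above the others. It was at least 6.06-fold higher in MI. The test was on the measured log2 difference of 3.11 (limma, adjusted p = 0.0297), not on this bound.

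CUST_OEV3_028982 was at 0.23, -0.27, 0.40, 0.19 and 0.31 in sham and at 1.14, 2.25, 3.11, 2.62 and 2.86 in MI. It was detected on all 10 arrays, and the lowest MI array, replicate 1, lay above every sham array. The log2 fold change was 2.23 (SE 0.33), or 4.68-fold (limma, adjusted p = 0.0469). CUST_OEV3_067282 was at -1.21, -1.05, -1.29, -1.0 and -0.65 in sham and at 0.01, 1.11, 0.57, 0.95 and 0.25 in MI. All 10 arrays detected it, and its log2 fold change was 1.62 (SE 0.23), or 3.07-fold (limma, adjusted p = 0.0469).

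Of the 12 probes called lower, 6 were not well above background on any MI array, so for these only a bound can be given. CUST_OEV3_064622, the probe of lowest adjusted p, was at -2.58, -2.80, -2.72, -2.58 and -2.53 in sham and at -4.15, -4.83, -4.17, -4.24 and -4.13 in MI. The sham levels were tight but lay just above the detection limit, so the probe was at least 1.09-fold lower in MI. The test was on the measured log2 difference of -1.66 (limma, adjusted p = 0.0149), and the bound itself was not tested. The bounds of the other 5 were 1.94-fold for CUST_OEV3_001740, 1.62-fold for CUST_OEV3_029079, 1.35-fold for CUST_OEV3_012433, 1.24-fold for CUST_OEV3_032774 and 1.20-fold for CUST_OEV3_042981. Their measured log2 differences were from -2.17 to -1.54, which are differences from signal at background.

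The remaining 6 probes called lower were detected in both groups on at least some arrays. CUST_OEV3_011140 was at -0.57, -0.52, -0.65, -0.79 and -0.74 in sham and at -2.57, -2.58, -3.04, -1.69 and -3.40 in MI, where 2 arrays detected it. The log2 fold change was -2.0 over all arrays (SE 0.27; adjusted p = 0.0387 in limma) and -1.99 on slide 2. CUST_OEV3_062635 was detected on all 10 arrays, at 0.42, 0.48, 0.62, 0.53 and -0.33 in sham and at -0.67, -1.39, -1.86, -1.42 and -1.28 in MI. Sham replicate 5 lay apart from the other sham arrays and closest to MI, so the difference on slide 2 was -0.97 against -1.67 over all arrays.

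CUST_OEV3_001133 was also detected on all 10 arrays, at 0.12 ± 0.20 in sham and -1.07 ± 0.23 in MI (SD, n = 5 each; limma, adjusted p = 0.0469). CUST_OEV3_028349 was at -0.16 ± 0.13 in sham and -1.60 ± 0.34 in MI, detected on 4 MI arrays (SD, n = 5 each; limma, adjusted p = 0.0311). CUST_OEV3_003658 was at -1.37 ± 0.25 and -2.93 ± 0.26, with 3 MI arrays (SD, n = 5 each; limma, adjusted p = 0.0297). In these 3 probes no MI value reached the sham range.

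CUST_OEV3_064618 was at -0.94, -0.90, -0.64, -0.95 and -1.14 in sham and at -1.97, -2.46, -2.08, -2.20 and -2.27 in MI, with a log2 difference of -1.28 (SE 0.16; adjusted p = 0.0297 in limma). Its identical copy, CUST_OEV3_064617, was at -1.11 ± 0.16 in sham and -2.16 ± 0.60 in MI (SD, n = 5 each), a difference of -1.05 that did not pass the test (limma, adjusted p = 0.156). One sequence was thus called under 1 ID and not under the other. MI replicates 4 and 5 stood at -1.58 and -1.59 in the copy and at -2.20 and -2.27 in the called probe.

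CUST_OEV3_064620 and its copy CUST_OEV3_064621 differed by -0.76 and -1.30 (limma, adjusted p = 0.176 and 0.113), and the overlapping CUST_OEV3_064619 by -0.94 (limma, adjusted p = 0.314). In CUST_OEV3_064619 MI replicates 4 and 5 were at -1.21 and -1.59, within the sham range or close to it, and MI replicates 2 and 3 at -3.50 and -3.26. All 6 IDs from CUST_OEV3_064617 to CUST_OEV3_064622 had lower means in MI. They hold 4 different sequences, of which those of CUST_OEV3_064619 and CUST_OEV3_064620 overlap. The next IDs, CUST_OEV3_064623 and CUST_OEV3_064616, differed by -0.32 and, below detection on all arrays, by 1.15. The nearest placed probes were CUST_OEV3_064537 at the 1700116H05Rik start (chromosome 17, 88307649 to 88307708) and CUST_OEV3_064857 at the Znrf4 start (chromosome 17, 56512641 to 56512700).

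At the edge of the threshold, CUST_OEV3_062635 was among the called probes of highest adjusted p, 0.0469. The uncalled custom probe of lowest adjusted p, CUST_OEV3_087001, was at 0.23, -0.07, 0.69, 0.63 and 0.43 in sham and at -2.64, -3.49, -1.55, -1.45 and -1.48 in MI. Its log2 fold change was -2.51 (SE 0.38; limma, adjusted p = 0.0521), larger than that of any custom probe called lower. It was detected on all sham and 3 MI arrays, and its groups did not overlap.

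The measured differences were smaller under another background correction. With normexp on the mean and background signals, a correction that models background and adds an offset of 50, the median size of the 18 log2 differences was 0.54, against 1.71 with the scanner's processed signal. None of the 18 was then called, with adjusted p from 0.0545 to 0.433. CUST_OEV3_028982 kept 1.61 of its 2.23, while CUST_OEV3_065213, which was near background in sham, kept 0.69 of its 3.56. None of the 18 changed sign under either normexp setting. The part of the correction and that of its offset were not separated.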

How the data were processed

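Total RNA of 10 samples was read on 1-colour Agilent arrays. The file headers name Feature Extraction 10.7.1.1. The deposited processed signal intensity had been corrected for spatial and multiplicative trends, with surrogate values for spots near background, per the file headers, and was not scaled between arrays. The flags for spots, used here as given, are also the authors' deposited values. The deposited value table holds log2 values, and its columns share 1 median; the submitters' processing notes name Agilent Feature Extraction and RMA with no role, and how the table was made is not stated there.

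From these files, log2 processed signal was averaged over the spots of a probe, leaving out spots flagged as uneven or outliers, and the 75th percentile of each array's noncontrol spots was subtracted. Groups and replicate numbers came from the sample titles. A probe was tested if well above background on at least 4 arrays of 1 group. MI was compared with sham in limma 3.58.1 (lmFit and eBayes, R 4.3.3) over all 73918 such probes, custom and catalogue together, with Benjamini-Hochberg adjustment, and called at an adjusted p under 0.05. The fit was tested on simulated data, drawn for each probe and array independently and without a slide effect. That simulation therefore could not test how the slides bear on the calls. Alternatives were median and quantile scaling, normexp background correction, the deposited value table, other filters, trended and robust eBayes, a replicate block, slide as a fixed or random block, and arrays left out. Depth has no meaning here; the number of arrays limits the precision.

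Probes named are all called custom probes, the 3 of highest sham level, the 3 of largest sham SD, those placed at a listed gene, and the values at the threshold. The placed probes of high level or without overlap, the miRNA hairpin probes, the ID ranges and the neighbouring IDs were chosen after their values were seen. The members and lists were chosen with earlier results of these data known. Promoter windows, gene spans and hairpins are from RefSeq (GRCm38.p6). A planned match to RefSeq proteins was not run, since no protein table was used here.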

Additional observations from a re-analysis of the deposited data

Results flagged for a closer look

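In 31 measures of named probes, 62 groups of 5 arrays were examined for an array whose gap to its nearest neighbour was over 0.71 of the group's range. By chance about 1 in 20 groups has one when the groups are not selected by their values. Here 6 were found, 3 of them on sham replicate 5, the only sham array on slide 2. The probes were named partly by their values and share the same arrays, so the 6 cannot be set against that rate. CUST_OEV3_083150 was named for its sham SD, which its flagged array set. Sham replicate 5 was at -0.33 in CUST_OEV3_062635, where the nearest other sham array was at 0.42. It was at 3.58 in CUST_OEV3_083150, against 8.16 for the nearest, and at 12.01 in CUST_OEV3_074855, against 12.45. Sham replicate 4 was at -3.10 in CUST_OEV3_042981, against -2.49 for the nearest, and was the sham array that did not detect the probe. MI replicate 2 was at -4.83 in CUST_OEV3_064622, against -4.24, with no MI array above background. MI replicate 5 was at 0.84 in CUST_OEV3_029597, against -0.80 for the nearest MI array.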

How the results depend on the processing

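The number of custom probes called depended on the setting more than any other result. Higher, lower and at least 2-fold apart, from 6, 12 and 18 with all arrays, the counts in limma were 3, 7 and 10 with median scaling and 3, 2 and 5 with probes detected on all 10 arrays. Quantile normalization and the deposited value table both gave 0, 5 and 5, and normexp before quantile normalization gave 0, 1 and 0. The called share was 0.0258% of custom and 0.0257% of all tested probes with median scaling, and 0.0209% and 0.0245% with probes detected on all 10 arrays. It was 0.0129% and 0.0135% with quantile normalization or the deposited value table, and 0.00258% and 0.00676% with normexp before quantile normalization. All 3 counts were 0 with normexp and the 75th percentile, with no filter, and with slide as a fixed or random block, where 12.6, 19.7, 3.87 and 4.60% of tested custom probes had an unadjusted p under 0.05, against 16.5, 18.9, 4.55 and 5.83% of all tested probes. Trended and robust eBayes gave 5 higher and 7 lower, 0.0310% of custom against 0.0406% of all tested probes. Without MI replicates 4 and 5 the counts were 1499, 2131 and 804, and 9.38% of custom against 16.3% of all tested probes were called. Leaving out 1 array at a time gave 0 to 310 higher, 0 to 206 lower and 0 to 437 at least 2-fold apart. The called share then ran from 0 to 1.33% of custom and from 0 to 1.66% of all tested probes.

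Same-numbered sham and MI arrays deviated from their group means with correlations from -0.34 to 0.22, so the numbers were not taken as pairs; with the replicate block 0 custom probes were called higher, 0 lower and 0 at least 2-fold apart, with 12.1% of custom and 12.6% of all tested probes at an unadjusted p under 0.05.

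The median level of custom probes, MI minus sham, was -0.027 and turned to 0.0033 with normexp and the 75th percentile, 0.021 with probes detected on all 10 arrays and 0.079 without MI replicates 4 and 5, with -0.069 to 0.028 leaving out 1 array. The difference in median SD, 0.30, was 0.023 without MI replicates 4 and 5, where MI arrays of slide 2 alone were set against sham arrays of slides 1 and 2. The share detected, custom minus catalogue, was -26.9 percentage points and -16.5 with the flag for spots positive and significant against background. It was between -27.2 and -25.8 in the other alternatives run. The share detected in MI minus sham stayed below 0 in the alternatives run, between -8.42 and -1.12 points. None of those compared the groups within slide 2, where the MI arrays averaged 42.9% and the single sham array was at 42.8%. The cause of these changes was not tested.

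Since the groups of the 18 called probes do not overlap, leaving out arrays could not turn their direction. Median scaling moved all 18 differences by one amount, smaller than any of them, so it could not turn them either. Quantile scaling and normexp with either scaling could have, and none of the 18 changed sign there. The deposited value table gave nearly the same differences as quantile scaling, so it was no separate check. The number still called was 18 without MI replicates 4 and 5, without MI replicate 1 and without MI replicate 4. It was 0 without sham replicate 2, 3 or 4 and without MI replicate 3. In 13 of 22 alternatives no probe of the block of 6 consecutive IDs was called. Signal near background limits the 8 called probes whose lower group was not detected on any array.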
